A study of Mus musculus with 6 samples.

Results

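The miR-30 family was described here by the levels of 7 of its mature arms, mmu-miR-30a-5p, mmu-miR-30a-3p, mmu-miR-30b-5p, mmu-miR-30c-5p, mmu-miR-30d-5p, mmu-miR-30e-5p and mmu-miR-30e-3p, in small RNA sequencing of the mouse prefrontal cortex. These 7 arms were taken by name from a list of 1189 entries, and each of them had reads in all 6 libraries. The prefix for the mouse is left out from here on. The libraries came from 3 mice of the PND group (postoperative neurocognitive disorder) and 3 mice of the CON group, with 1 library per mouse. All were wild type male C57BL/6 mice, 18 months old by their recorded age, although their titles carry 17 months. PND mice were anesthetized with 1.5% isoflurane for 30 min and then had an exploratory laparotomy of 30 min under the same agent, and their wound was treated with lidocaine cream and povidone iodine. CON mice had none of these. Anesthesia and operation therefore cannot be told apart as a source of any difference. Both groups had passed through the same behavioral tests and were perfused under isoflurane when the tissue was taken, and the sequenced mice were drawn at random from 13 per group. The levels are reads per 1000000 reads on all listed miRNAs (CPM). The libraries held between 14849461 and 19471226 such reads, and in each of them 100% of the values lay within 0.01 of a whole number of reads.

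A miRNA hairpin is cut into a short duplex, and 1 of its arms is usually kept in an Argonaute protein while the other is mostly degraded. The kept arm finds its target mRNAs mainly through its seed, bases 2 to 8 from the 5′ end. The 5p arms of the miR-30 hairpins share a seed and are therefore expected to share many targets. The family is abundant in many tissues, brain included, and is known for roles in cell differentiation and autophagy. miR-30a-5p is known to target Bdnf mRNA, which encodes a neurotrophin of the cortex.

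Sequences are shown because the arms of the family differ by few bases while their levels differ widely. A mature sequence was found for 5 of the 7 arms in RefSeq (GRCm38.p6), and capitals mark the seed.
miR-30a-5p: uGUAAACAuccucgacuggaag
miR-30c-5p: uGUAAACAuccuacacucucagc
miR-30e-5p: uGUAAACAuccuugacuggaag
miR-30a-3p: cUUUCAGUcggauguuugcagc
miR-30e-3p: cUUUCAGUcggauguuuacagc
miR-384-5p: uGUAAACAauuccuaggcaaugu
The 3 printed 5p arms of the family shared the first 12 bases. Counted from 1 at the 5′ end, miR-30a-5p and miR-30e-5p differed at 1 of 22 positions (C13U), and miR-30a-3p and miR-30e-3p differed at 1 of 22 positions (G18A). miR-384-5p, an arm of another hairpin that is known from work on synaptic plasticity, was the only other entry with the 5p seed among the 997 entries that had a sequence in the table. How reads matching more than 1 miRNA were assigned is not given in the sources used here, so the split of reads between the miR-30a and miR-30e arms is uncertain.

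On GRCm38 the hairpin Mir30a lies on chromosome 1 from 23272269 to 23272339 (plus strand). Genes with names starting in Mir were left out of the search, and no other gene was annotated over the whole of Mir30a. Mir30c-2 lies on the same strand from 23291701 to 23291784 and overlaps an exon of the lincRNA gene Gm27028. Mir30e lies on chromosome 4 from 120772606 to 120772697 and Mir30c-1 from 120769534 to 120769622 (minus strand), both in introns of Nfyc, which encodes a subunit of the transcription factor NF-Y. Since miR-30c-5p has the same sequence from Mir30c-1 and Mir30c-2, its level is that of both hairpins together, and only the 3p arms tell them apart.

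The labelled tissue was checked against marker miRNAs. The 4 brain and neuron markers (miR-124-3p, miR-9-5p, miR-128-3p and miR-137-3p) summed to 278904 to 316664 CPM in 5 libraries and to 370487 CPM in CON mouse 2. Most of this sum was miR-128-3p, with 292349 CPM in CON mouse 2 and 176370 to 232454 CPM in the other libraries. The higher sum of CON mouse 2 therefore does not speak for the whole list. The 5 epithelial or olfactory markers summed to 861 CPM in CON mouse 1 and to 27.3 to 36.7 CPM in the others, and the 3 red blood cell markers to 99.5 CPM in PND mouse 1 and to 31.9 to 54.5 CPM in the others. Leukocyte markers summed to 17.3 to 27.2 CPM in PND and 11.3 to 20.8 CPM in CON. The endothelial pair summed to 13326 to 13992 CPM in PND and 11991 to 14372 CPM in CON, and the mural pair to 8727 to 9898 CPM in PND and 6689 to 9670 CPM in CON. All listed markers had reads in at least 1 library, and 1 red blood cell marker and 1 epithelial or olfactory marker were at 0 in some. In this bulk tissue a smaller share of a cell type and a lower level per cell cannot be told apart, and the part of cell composition in the values of CON mouse 2 was not tested.

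The family stood among the most abundant miRNAs of this tissue, and miR-30c-5p and miR-30d-5p together held most of its reads. miR-30c-5p had 15972, 17890 and 18505 CPM in the PND mice and 16690, 14498 and 17206 CPM in the CON mice. It ranked 11th to 13th of all entries across the libraries. miR-30d-5p had 14983, 14949 and 15376 CPM in the PND mice and 14563, 13459 and 15882 CPM in the CON mice, and ranked 12th to 15th. For both arms the values of the groups overlapped, and CON mouse 2 was the lowest library.

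The next level was that of miR-30a-5p. It had 5705, 6650 and 8621 CPM in the PND mice and 5229, 3614 and 6465 CPM in the CON mice. The groups overlapped, since CON mouse 3 lay above PND mouse 1. The range was wide, with PND mouse 3 at 2.39 times the level of CON mouse 2.

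Both 3p arms followed, at nearly the same level as each other and with little spread. miR-30a-3p had 1162, 1220 and 1145 CPM in the PND mice and 1135, 1194 and 1187 CPM in the CON mice. miR-30e-3p had 1151, 1217 and 1197 CPM in the PND mice and 1120, 1168 and 1175 CPM in the CON mice. The highest library exceeded the lowest by 1.07 times for miR-30a-3p and by 1.09 times for miR-30e-3p, and the groups overlapped for both.

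miR-30b-5p and miR-30e-5p were the lowest of the 7. miR-30b-5p had 675, 879 and 1081 CPM in the PND mice and 828, 437 and 705 CPM in the CON mice. miR-30e-5p had 386, 463 and 673 CPM in the PND mice and 379, 151 and 429 CPM in the CON mice. In both arms CON mouse 2 was the lowest and PND mouse 3 the highest, and the groups overlapped. The fewest reads behind any of the 7 arms were the 2243 reads of miR-30e-5p in CON mouse 2, so counting error was small beside the spread between mice. That spread is also the only error measured here, as each mouse was sequenced once.

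**Figure D1:**
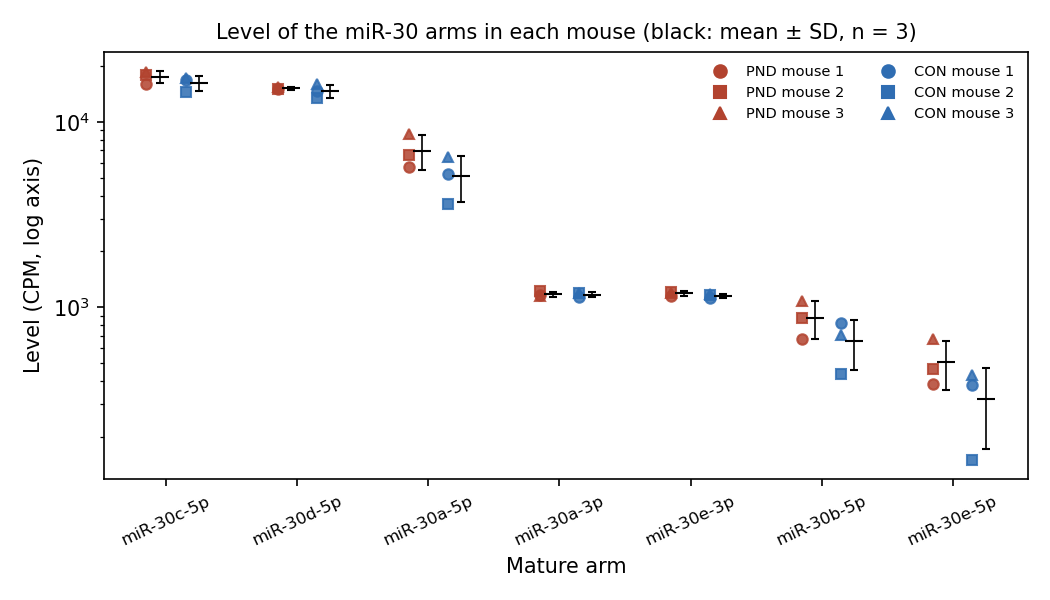
Level of the 7 miR-30 arms in CPM (log axis) in each of 3 PND mice (red) and 3 CON mice (blue), with the mean ± SD of each group in black. miR-30c-5p and miR-30d-5p reach from 13459 to 18505 CPM, both 3p arms lie between 1120 and 1220 CPM, and miR-30e-5p reaches from 151 to 673 CPM.

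CPM counts reads and was not divided by length, and the 5 arms with a sequence were 22 or 23 bases long. Whether library preparation captured all arms equally was not tested. A bias shared by all libraries would enter every comparison between arms, that is their order, shares and arm ratios, and the tests would not reveal it. In the order of their mean levels, the arms were miR-30c-5p, miR-30d-5p, miR-30a-5p, miR-30a-3p, miR-30e-3p, miR-30b-5p and miR-30e-5p. Of the 6 neighbouring pairs, 5 had the same arm higher in 6 of 6 libraries (exact paired permutation test over 6 libraries, two-sided, p = 0.0313 each, the smallest possible, and 0.0375 after Benjamini-Hochberg adjustment over the 6 pairs). The pairs were taken from the means of these same libraries, so these p-values are no independent support for the order. The ratio between neighbours was 1.13 for miR-30c-5p over miR-30d-5p, 2.54 for miR-30d-5p over miR-30a-5p and 4.98 for miR-30a-5p over miR-30a-3p. It was 1.58 for miR-30e-3p over miR-30b-5p and 1.95 for miR-30b-5p over miR-30e-5p. The exception was miR-30a-3p over miR-30e-3p, with a ratio of 1.002 and the first arm higher in 5 of 6 libraries (exact paired permutation test, p = 0.812). The levels assigned to these 3p arms did not differ beyond their spread, with a ratio of 0.956 to 1.02 in each library. Whether reads counted for both entries had a part in this likeness was not tested, as the rule for such reads is unknown. The level assigned to miR-30a-5p exceeded that of miR-30e-5p by 12.8 to 23.9 times in the same libraries.

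Within the summed level of the 5p arms, miR-30c-5p made up 41.8% to 45.1% and miR-30d-5p made up 34.7% to 41.9%. miR-30a-5p made up between 11.2% in CON mouse 2 and 19.5% in PND mouse 3. miR-30b-5p held 1.36% to 2.44% and miR-30e-5p held 0.47% to 1.52%. The 95% binomial confidence interval (Wilson) of any of these shares reached at most 0.141 percentage points to either side, which covers counting error only. The share of miR-30a-5p was 16.96% ± 2.26 in PND and 13.7% ± 2.33 in CON (SD, n = 3 each). Neither for this share nor for the other 4 did the test tell the groups apart (p = 0.2 or 0.3 for each in a two-sided exact permutation test, adjusted p = 0.3). With 3 mice against 3 the smallest possible p of this test is 0.1.

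Which arm had more reads differed across the hairpins of the family. In miR-30a the 5p arm exceeded the 3p arm by 4.91, 5.45 and 7.53 times in the PND mice and by 4.61, 3.03 and 5.44 times in the CON mice. In miR-30e the 3p arm was the higher one in every mouse. Its ratio of 5p to 3p was 0.335, 0.380 and 0.562 in PND mice 1 to 3, against 0.339, 0.129 and 0.366 in CON mice 1 to 3. The 5p arm was thus 11.4% to 35.97% of the reads on both arms of miR-30e and 75.2% to 88.3% of those of miR-30a. The Wilson interval of these percentages was at most 0.563 percentage points to either side and covers counting error only. The split of reads between the near-identical miR-30a and miR-30e arms is uncertain, so these ratios hold for the reads as assigned.

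In the remaining hairpins the 3p arms were minor. miR-30b-5p exceeded miR-30b-3p by 12.0 to 34.1 times. miR-30c-5p exceeded its pair of 3p arms together by 90.6 to 105 times, the narrowest range in the family. miR-30d-5p exceeded miR-30d-3p by 688 to 1124 times, over 12.1 to 22.4 CPM of the 3p arm. The 3p arms of the miR-30c hairpins are shown because they tell these hairpins apart, again with the seed in capitals.
miR-30c-1-3p: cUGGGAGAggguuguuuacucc
miR-30c-2-3p: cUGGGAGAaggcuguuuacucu
They differed by G9A, U12C and C22U. Between the hairpins of miR-30c, the arm of Mir30c-2 was 7.09 to 8.74 times as high as that of Mir30c-1. miR-30c-2-3p had 140 to 159 CPM and miR-30c-1-3p had 16.4 to 19.8 CPM.

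The arm ratios were compared between the groups to ask whether strand choice differed after anesthesia and operation, since scaling of a library cancels in a ratio taken within it. The uncertain split of reads between the miR-30a and miR-30e arms does not cancel. On the log2 scale the ratio of 5p to 3p was higher in the PND group than in the CON group by 0.47 for miR-30a, with means of 2.55 ± 0.32 and 2.08 ± 0.44 (SD, n = 3 each). For miR-30e it was higher by 0.72, with means of -1.27 ± 0.39 and -1.99 ± 0.84 (SD, n = 3 each). The groups overlapped in both, and the test told them apart in neither (p = 0.2 for miR-30a and 0.3 for miR-30e in a two-sided exact permutation test, adjusted p = 0.5 over 5 hairpins). The smallest p that 3 mice against 3 allow is 0.1. The differences were smallest without CON mouse 2, at 0.23 for miR-30a and 0.24 for miR-30e. Without PND mouse 3 they were 0.29 and 0.50. For miR-30b, miR-30c and miR-30d the differences were 0.45, 0.03 and -0.29 (exact permutation test, p = 0.4, 0.8 and 0.3).

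**Figure D2:**
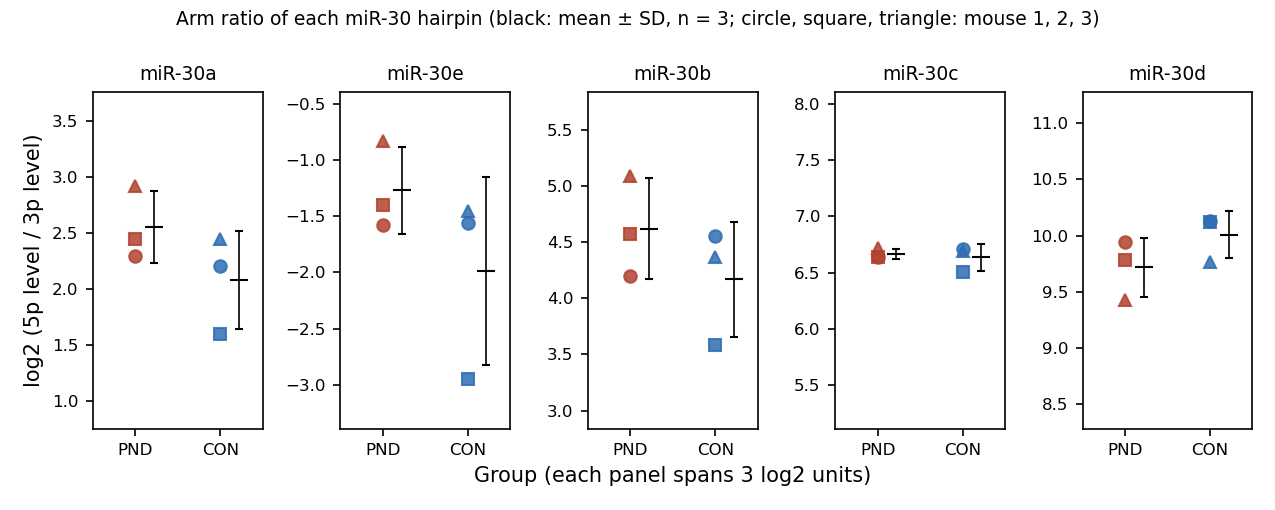
Log2 ratio of the 5p to the 3p level of each miR-30 hairpin in 3 PND and 3 CON mice, with the mean ± SD of each group in black. Every panel spans the same height, the groups overlap in each, and the lowest value of miR-30e, -2.95, is that of CON mouse 2.

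The arms differed in how far they varied between mice. The SD of the log2 level over the 6 libraries was 0.71 for miR-30e-5p, 0.44 for miR-30b-5p and 0.42 for miR-30a-5p. It was 0.13 for miR-30c-5p and 0.08 for miR-30d-5p. It was 0.04 for miR-30a-3p and 0.04 for miR-30e-3p. Among the 193 entries with a mean of at least 100 CPM, 97.9% had a smaller SD than miR-30e-5p, whereas 1.04% had a smaller SD than miR-30a-3p and 1.55% a smaller one than miR-30e-3p. The arms of 1 hairpin thus lay near opposite ends of this range. In CON mouse 2, miR-30e-5p deviated by -1.32 from its own mean on the log2 scale and miR-30a-5p by -0.69, while miR-30e-3p deviated by -0.003 and miR-30a-3p by 0.03.

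The 5p arms were alike in pattern to different degrees over the 6 libraries, and all 5 were lowest in CON mouse 2. Between log2 levels of miR-30a-5p and miR-30e-5p, Pearson's r was 0.98 and Spearman's rho was 1. For miR-30b-5p with miR-30d-5p, the lowest r among the 5p arms, r was 0.69 and rho 0.37, and these arms deviated to opposite sides of their means in 3 of 6 libraries. Between miR-30a-5p and miR-30a-3p r was -0.20 and rho 0.029. These values describe 6 libraries whose CPM are shares of 1 total. GC content is a feature the choice of arms did not use, and miR-30a-5p and miR-30e-3p both had 45.5%, with SDs of 0.42 and 0.04. miR-30e-5p, with the widest spread, had the lowest GC content of the 5 arms with a sequence, 40.9%. Spearman's rho of GC content with the SD over libraries was -0.27 across the 165 entries of at least 100 CPM that had a sequence, with wider spread at lower GC content. Across the 41 other entries of 100 CPM or more within 2.5 percentage points of 45.5% GC, the median deviation in CON mouse 2 was -0.20. Near the 40.9% of miR-30e-5p this median was -0.13 over 22 entries, while miR-30e-5p itself deviated by -1.32. Across the same 165 entries, Spearman's rho of the GC content with the deviation lay between -0.39 in PND mouse 3 and 0.43 in PND mouse 1 and was 0.28 in CON mouse 2, a description over entries of 1 library. The part of base composition in these patterns was not tested.

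**Figure D3:**
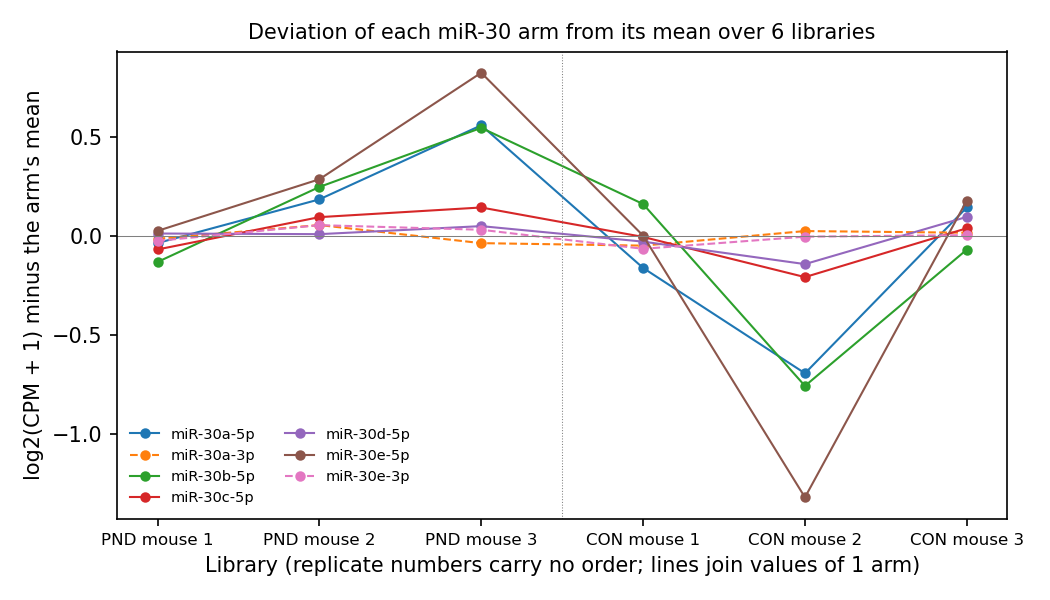
Deviation of log2(CPM + 1) of each miR-30 arm from its own mean over the 6 libraries, solid for 5p and dashed for 3p arms. miR-30e-5p, miR-30b-5p and miR-30a-5p spread widely, with their lowest value in CON mouse 2 and their highest in PND mouse 3, and both 3p arms stay within 0.07 of their means.

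The entries whose pattern was most like the summed 5p level were sought among 184 entries with a mean of at least 100 CPM, by Pearson's r over the 6 libraries. They were miR-101b-3p, miR-340-5p, miR-218-5p, miR-101a-3p and miR-192-5p, with r between 0.989 and 0.997 and Spearman's rho between 0.886 and 1. Without PND mouse 3 and CON mouse 2, the farthest libraries from the median, r lay between 0.919 and 0.992 over 4 libraries. miR-101a-3p had 858, 1108 and 1842 CPM in the PND mice and 817, 345 and 1081 CPM in the CON mice, so it was again lowest in CON mouse 2 and highest in PND mouse 3. miR-340-5p had 1932, 2616 and 3492 CPM in the PND mice and 2006, 1178 and 2424 CPM in the CON mice, with the same libraries at its ends. For all 5 entries the adjusted p of PND against CON was 0.77 (limma).

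PND was then compared with CON for each arm by limma on log2(CPM + 1) of all 1189 entries. None of the 7 arms passed the test. With limma, 0 of 7 had an adjusted p under 0.05 (0.421% of all entries did, a share that fell to 0 in some alternatives), and 0 of 7 had an unadjusted p under 0.05 (5.13% of all entries). A p under 0.05 with a change above 2-fold, the limits of the study's methods, was met by 0 of 7 (0.0841% of all entries). The study set these limits on edgeR p-values and fold changes of TPM, so its own count is not directly comparable with this share. The groups overlapped in 7 of 7. Over all entries they did not overlap for 9.92%, 7.91% with PND higher and 2.02% with CON higher. At that share, 7 arms are too few for the overlap in all of them to set the family apart. On recovered reads, the quasi-likelihood test and the exact test of edgeR had 0 of 7 with an unadjusted p under 0.05. DESeq2 had 1, miR-30e-5p, whose adjusted p from DESeq2 was 0.98.

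The largest log2 fold change of the 7 was that of miR-30e-5p, 0.76 (standard error 0.39, adjusted p = 0.77 from limma, 95% interval -0.15 to 1.67). It came from 507 ± 148 CPM in PND against 319.97 ± 148 CPM in CON (SD, n = 3 each). Without CON mouse 2 it was 0.29. miR-30a-5p had 6992 ± 1488 CPM against 5103 ± 1429 CPM (SD, n = 3 each), a log2 fold change of 0.47 (standard error 0.23, adjusted p = 0.77), and 0.24 without CON mouse 2. miR-30b-5p had 878 ± 203 CPM against 657 ± 200 CPM (SD, n = 3 each), a log2 fold change of 0.44 (standard error 0.26, adjusted p = 0.77), and 0.17 without CON mouse 2. For these 3 arms the interval still allowed a 2-fold difference or, for miR-30e-5p, more. When CON mouse 1 was left out, the value was 0.95 for miR-30e-5p and 0.51 for miR-30a-5p, and without PND mouse 1 it was 0.94 and 0.61. Without PND mouse 3 it was 0.54 for miR-30e-5p, 0.31 for miR-30a-5p and 0.28 for miR-30b-5p.

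The other 4 arms had narrower intervals. The log2 fold change was 0.11 (standard error 0.10) for miR-30c-5p and 0.05 (standard error 0.09) for miR-30d-5p. It was 0.00 (standard error 0.09) for miR-30a-3p and 0.04 (standard error 0.09) for miR-30e-3p. Their 95% intervals lay between -0.20 and 0.35, and their adjusted p-values from limma between 0.77 and 0.98. All 7 estimates were above 0 with scaling to the library total, as were 65.3% of all entries, but with TMM factors or with DESeq2 size factors 3 of 7 were above 0. The median of the 7 was 0.11, that of all entries was 0.05, and that of the 361 entries with a mean of at least 10 CPM was 0.14. TMM factors moved this last median by -0.12 and DESeq2 size factors by -0.15.

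**Figure D4:**
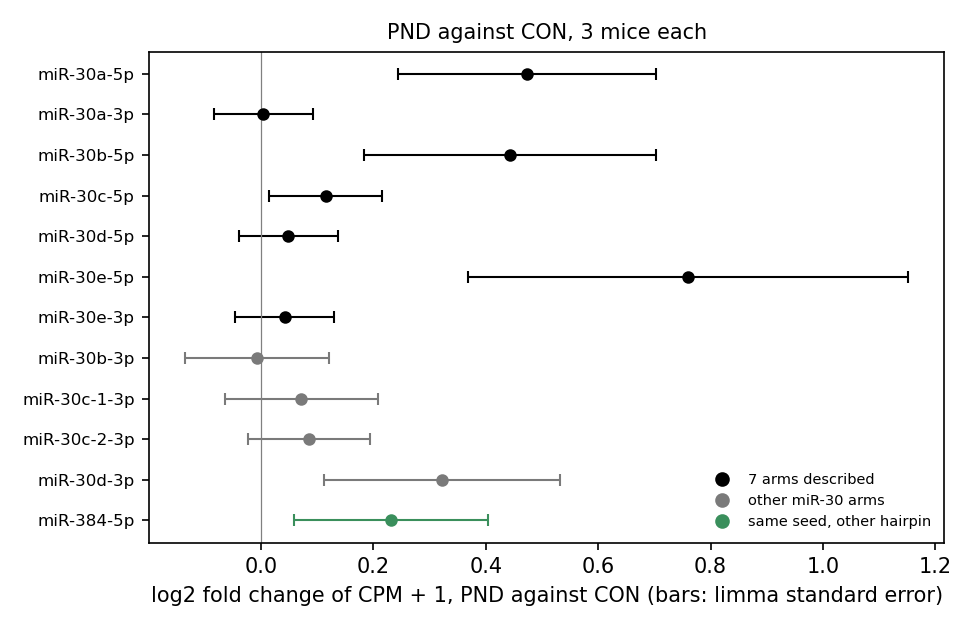
Log2 fold change of CPM + 1, PND against CON, for the 7 arms (black), 4 further arms of the same hairpins (grey) and miR-384-5p (green), with the standard error from limma as bars. With scaling to the library total the estimates reach from -0.01 for miR-30b-3p to 0.76 for miR-30e-5p, and the smallest adjusted p of an entry shown is 0.77.

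Of the 4 other arms and miR-384-5p, 0 of 5 had an unadjusted p under 0.05 in limma. miR-384-5p had 239, 270 and 300 CPM in the PND mice and 271, 180 and 245 CPM in the CON mice, with a log2 fold change of 0.23 (standard error 0.17, adjusted p = 0.77 from limma). Its lowest value was that of CON mouse 2 and its highest that of PND mouse 3, and the groups overlapped. miR-30d-3p had a log2 fold change of 0.32 (standard error 0.21), and miR-30b-3p, miR-30c-1-3p and miR-30c-2-3p lay between -0.01 and 0.09.

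The summed level of the 5p arms is not affected by how reads were split between near-identical 5p arms, provided that each read was counted once. It was 37722, 40830 and 44257 CPM in the PND mice and 37689, 32159 and 40688 CPM in the CON mice, which is 3.22% to 4.43% of all reads. The group means were 40936 ± 3269 CPM and 36845 ± 4326 CPM (SD, n = 3 each). On the log2 scale PND was higher by 0.16, with p = 0.2 in a two-sided exact permutation test whose smallest possible p is 0.1. This difference fell to 0.06 once CON mouse 2 was left out and to 0.10 once PND mouse 3 was left out. miR-128-3p, the most abundant miRNA of these libraries, moved against the sum, with 29.2% of the reads in CON mouse 2, where the sum was lowest, and 17.6% in PND mouse 3, where it was highest. When each library was scaled to its total without miR-128-3p, the difference was 0.07, and it was 0.03 with TMM factors and 0.00 with DESeq2 size factors. The summed level of miR-30a-3p and miR-30e-3p was 2314, 2436 and 2342 CPM in the PND mice and 2255, 2363 and 2362 CPM in the CON mice, a log2 difference of 0.02 with overlapping groups.

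Set against other families of several near-identical members, the summed 5p level did not tell the groups apart. It was 0.522 to 0.808 times the miR-26 sum, 4.79 to 6.15 times the miR-181 sum and 0.153 to 0.219 times the let-7 sum. The log2 ratio was higher in PND than in CON by 0.22 against miR-26, by 0.05 against miR-181 and by 0.12 against let-7 (p = 0.3, 0.7 and 0.6 in a two-sided exact permutation test, adjusted p = 0.7 over 3 families). Leaving out CON mouse 2 gave differences of 0.11, -0.03 and 0.01.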

How the data were processed

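Small RNA libraries of the prefrontal cortex were made from 3 PND and 3 CON mice, 1 per mouse. The study's methods name a NEBNext small RNA kit, whereas the labels name a VAHTS total RNA kit. Reads were filtered with fastx and aligned with Bowtie, and miRNAs were taken from miRBase. The submitters' processing notes list Bowtie 0.12.2 and the builds mm8 and mm9 with no role. The miRBase release and the rule for reads matching several miRNAs are not given in the sources used here. The deposited values are CPM, which the authors call TPM and describe as TMM-normalized. Each column summed to 1000000, so no scaling between libraries was left in them. Every value was a whole multiple of 1 read (100% within 0.01 of a read), and reads were recovered from the multiples. A count of 3 reads, the limit that a count of 0 allows, corresponds to 0.154 to 0.202 CPM. No pair of libraries of a group agreed within sampling noise (chi-square per degree of freedom of at least 120).

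The methods of the study name edgeR and limma, and limma 3.58.1 (trended eBayes, R 4.3.3) was run here on log2(CPM + 1) of all 1189 entries with no filter, both groups and no covariate, with Benjamini-Hochberg adjustment over all entries. A fold change is therefore on the log2(CPM + 1) scale. On recovered reads edgeR 4.0.16 and DESeq2 1.42.0 were alternatives. limma had 5 entries with an adjusted p under 0.05, and the quasi-likelihood and exact tests of edgeR and DESeq2 had 5 each, a count that other alternatives moved to between 0 and 5. Sums, shares and ratios were compared by exact permutation tests (scipy 1.17.1). Other alternatives were a pseudocount of 0.1, a mean of at least 10 CPM, no trend, TMM factors, DESeq2 size factors, the total without miR-128-3p, a replicate block and each library left out. The limma script was tested on simulated data.

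Named entries were the 7 arms, the other arms of their hairpins, entries with the same seed, and the 5 entries most like the summed 5p level. The members, marker lists and families were chosen with earlier results of these data known. Intervals of shares are Wilson intervals of 95% and cover counting error only. GRCm38 served for names, sequences and positions, apart from the authors' alignment.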

Additional observations from a re-analysis of the deposited data

How the results depend on the processing

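In none of the alternatives did any of the 7 arms have an adjusted p under 0.05 or pass both limits of the study, and their adjusted p-values reached from 0.57 to 1. The count of arms with an unadjusted p under 0.05 was 0 in the main result, 1 with DESeq2 (miR-30e-5p) and 1 without CON mouse 3 (miR-30a-5p), so it ranged from 0 to 1 when each library was left out. No clear pairing by replicate number was seen. Deviations correlated at -0.13, 0.12 and 0.51 for the numbers 1, 2 and 3 over 361 entries. For mice of different numbers the correlations lay between -0.55 and 0.50. With the replicate number as a block in limma, 2 arms had an unadjusted p under 0.05, miR-30a-5p and miR-30e-5p, each with an adjusted p of 0.75, and 0 of all entries had an adjusted p under 0.05. The block changed no other call. Over all entries, the count with an adjusted p under 0.05 was 5 in the main result, 0 in limma without trend, 0 with a mean of at least 10 CPM, 2 without PND mouse 1, 3 without PND mouse 3 and 0 without PND mouse 2 or any 1 of the CON mice.

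The log2 fold changes of miR-30a-5p, miR-30b-5p, miR-30e-5p, miR-30d-3p and miR-384-5p kept their sign in every alternative. Those near 0 turned negative under other scalings. With TMM factors they were -0.12 (miR-30a-3p), -0.0074 (miR-30c-5p), -0.074 (miR-30d-5p), -0.080 (miR-30e-3p), -0.044 (miR-30c-1-3p) and -0.036 (miR-30c-2-3p). With DESeq2 size factors the same arms had -0.15, -0.037, -0.10, -0.11, -0.072 and -0.066, and with DESeq2 itself -0.16, -0.038, -0.11, -0.12, -0.074 and -0.072. Both edgeR tests gave -0.12, -0.0072, -0.075, -0.087, -0.046 and -0.041. With the total without miR-128-3p the value was -0.081 for miR-30a-3p, -0.037 for miR-30d-5p, -0.043 for miR-30e-3p and -0.0091 for miR-30c-1-3p. With libraries left out in turn, miR-30a-3p ranged from -0.023 to 0.023, miR-30d-5p from -0.010 to 0.11 and miR-30b-3p from -0.042 to 0.064, and the log2 difference of the 5p sum against miR-181 ranged from -0.029 to 0.15. The cause of these changes was not tested.

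With each library left out in turn, the log2 fold change ranged from 0.29 to 1.04 for miR-30e-5p, from 0.24 to 0.66 for miR-30a-5p and from 0.17 to 0.63 for miR-30b-5p. The log2 arm ratio difference ranged from 0.23 to 0.65 for miR-30a and from 0.24 to 0.99 for miR-30e, and that of the summed 5p level from 0.06 to 0.23, in each case lowest without CON mouse 2. Depth does not limit the 7 arms, each with at least 2243 reads per library. For sums, shares and ratios, 3 mice against 3 cannot reach an exact p under 0.1.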
